A study of Mus musculus with 12 samples.

Results

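Genes of cholesterol and fatty acid synthesis were followed in the lungs of wild-type and Nfkb1-deficient mice in filtered air and after O3. The module holds 30 genes chosen by name: 21 of the sterol arm, which are mostly targets of the transcription factor SREBP2, and 9 of the fatty acid arm, which are mostly targets of SREBP1. Of these, 29 were measured among 17567 genes tested, 20 in the sterol arm and 9 in the fatty acid arm, and all 29 lay above the 20th percentile of the signals in every array. Acat2 was not analysed here. The mice were males of 6 to 8 weeks, either with the germline Nfkb1tm1Bal allele on both chromosomes (B6;129P-Nfkb1tm1Bal/J, Nfkb1-/-), which removes the p50/p105 subunit of NF-kB from all cells, or B6129PF2/J wild types (Nfkb1+/+). They breathed 0.3 ppm O3 without a break for 48 h, or filtered air in another chamber, so that chamber and exposure cannot be told apart. Each of the 4 groups (WT-Air, WT-O3, Nfkb1KO-Air, Nfkb1KO-O3) held 3 mice, and RNA from the homogenised left lung of each mouse went onto an Affymetrix mouse genome array of its own. The comparisons ask how the module responded to O3 and whether that response depended on Nfkb1, a subunit of a transcription factor that drives inflammatory genes.

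Cells make cholesterol from acetyl-CoA through mevalonate and a chain of isoprenoids to squalene, which is closed into lanosterol and then trimmed to cholesterol. When the membranes of the endoplasmic reticulum run low in sterol, the escort protein Scap carries SREBP2 to the Golgi, where it is cut, and its released part enters the nucleus and switches on nearly every enzyme of this chain. The related SREBP1 serves fatty acid synthesis in the same way. In the lung, alveolar type II cells make lipid for surfactant, which covers the airspace and is a direct target of inhaled O3.

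Lung identity was checked on markers of type II epithelium. The log2 signal of Sftpc, a surfactant protein, was 14.27 to 14.58 over the 12 arrays, and the summed signal of 9 type II markers was 111000 to 127000. Nfkb1 itself was not analysed here, so the genotype labels were not checked on the targeted transcript. The Nfkb1KO-Air replicate 1 array stood apart, with a median signal of 180.1 against 99.14 to 121.2 in the other 11 arrays, and a rank correlation with them of 0.916 to 0.93 against 0.947 to 0.97 among them. The log2 gap between the 3′ and 5′ Gapdh control probe sets was -0.35 to -0.092 in air and -0.57 to -0.37 after O3, with no overlap, and the hybridisation controls read 11.49 to 11.76 in air and 11.36 to 11.52 after O3. The part of these control shifts in the O3 differences below was not tested.

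The promoters of the sterol arm shared a short element that the choice of genes did not use. RefSeq windows (GRCm38.p6) were found for 23 of the 30 genes, and the 250 bases before each start were searched on both strands. CCAAT, the box bound by NF-Y, a usual partner of SREBP, was present in 16 of the 16 measured sterol arm genes with a window, in 2 of 6 fatty acid genes (Srebf1 and Fasn), and in 39.3% of the 13970 tested genes with a window (33.8% of 32851 windows). GGGCGG, the Sp1 box, was present in 15 of 16 sterol arm genes (all but Pmvk) and 3 of 6 fatty acid genes, against 54.5% of tested genes (32.7% of windows). The sterol regulatory element spelled TCACNCCAC was found in 1 gene, Hmgcs1, against 1.25% of tested genes (1.05% of windows). CACGTG, an E-box, lay before 4 sterol arm genes (Dhcr7, Sc5d, Insig1 and Hsd17b7), against 8.79% of tested genes (6.02% of windows). The kappa B consensus, the site named for NF-kB, was matched before 1 sterol arm gene (Ebp) and 1 fatty acid gene (Srebf1), against 7.07% of tested genes (5% of windows). These matches describe letters and not bound sites.

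Windows of 6 genes are shown because their transcripts behaved differently with O3 while 5 of them belong to the same arm. Idi1 (chr13:8885356-8885605, plus strand), Cyp51 (chr5:4104698-4104947, minus strand) and Msmo1 (chr8:64733579-64733828, minus strand) rose in both genotypes. Hmgcs1 (chr13:119690101-119690350, plus strand) was positive without passing the test on the probe set used. Insig1 (chr5:28071162-28071411, plus strand) had an O3 difference near 0, and Fasn (chr11:120824548-120824797, minus strand) is a fatty acid gene. Each window runs 5′ to 3′ toward the start, which follows its last base. Capitals mark CCAAT on either strand (ATTGG when on the other strand) and, in Hmgcs1, the sterol regulatory element as well. Matches on opposite strands overlap in Fasn.
Idi1: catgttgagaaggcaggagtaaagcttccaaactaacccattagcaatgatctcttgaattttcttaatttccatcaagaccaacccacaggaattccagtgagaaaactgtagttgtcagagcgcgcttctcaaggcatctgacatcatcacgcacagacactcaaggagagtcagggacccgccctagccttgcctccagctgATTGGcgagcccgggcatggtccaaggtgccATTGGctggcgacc
Cyp51: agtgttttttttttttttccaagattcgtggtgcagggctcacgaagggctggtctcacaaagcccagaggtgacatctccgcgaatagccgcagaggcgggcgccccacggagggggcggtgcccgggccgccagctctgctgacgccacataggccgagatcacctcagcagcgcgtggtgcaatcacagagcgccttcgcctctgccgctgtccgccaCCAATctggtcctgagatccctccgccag
Msmo1: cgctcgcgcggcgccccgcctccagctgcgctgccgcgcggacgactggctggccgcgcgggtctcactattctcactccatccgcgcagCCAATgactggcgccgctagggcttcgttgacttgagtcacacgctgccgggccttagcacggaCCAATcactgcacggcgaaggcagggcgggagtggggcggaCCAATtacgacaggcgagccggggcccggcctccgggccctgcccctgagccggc
Hmgcs1: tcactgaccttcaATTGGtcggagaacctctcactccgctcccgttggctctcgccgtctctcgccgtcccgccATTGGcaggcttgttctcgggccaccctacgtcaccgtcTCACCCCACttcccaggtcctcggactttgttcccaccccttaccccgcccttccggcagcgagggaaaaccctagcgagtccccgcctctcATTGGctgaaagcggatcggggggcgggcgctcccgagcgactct
Insig1: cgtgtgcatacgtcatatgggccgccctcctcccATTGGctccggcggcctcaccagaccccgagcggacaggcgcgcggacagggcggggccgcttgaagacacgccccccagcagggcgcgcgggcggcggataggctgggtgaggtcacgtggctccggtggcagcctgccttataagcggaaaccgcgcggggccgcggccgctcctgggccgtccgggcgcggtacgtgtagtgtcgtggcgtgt
Fasn: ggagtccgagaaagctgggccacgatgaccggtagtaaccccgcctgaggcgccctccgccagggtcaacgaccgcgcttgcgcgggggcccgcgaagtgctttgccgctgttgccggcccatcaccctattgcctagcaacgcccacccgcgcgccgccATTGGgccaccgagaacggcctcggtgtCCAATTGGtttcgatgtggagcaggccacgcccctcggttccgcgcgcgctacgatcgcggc
The 2 boxes of Idi1 began 45 and 14 bases before the start, the 3 of Msmo1 began 160, 96 and 55 bases before it, and that of Cyp51 began 29 bases before it. Insig1, with its box 216 bases before the start, and Hmgcs1, with boxes at 237, 176 and 45 bases, carried the element as well.

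Enzymes of cholesterol synthesis rose with O3 in both genotypes, while the 3 control and transport genes of the module (Srebf2, Insig1 and Stard4) and the fatty acid arm were not called. In WT mice 9 of 20 measured sterol arm genes rose and 0 fell (limma, Benjamini-Hochberg adjusted p under 0.05 over all genes), where 3.18% of all genes rose and 2.21% fell. In Nfkb1-deficient mice 7 of 20 rose and 0 fell, where 3.36% of all genes rose and 2.81% fell. The 7 were among the 9, and 1.74% of all genes rose in both genotypes. With O3 averaged over the genotypes, 13 of 20 rose and 0 fell, where 7.74% of all genes rose and 7.49% fell. None of the 9 fatty acid arm genes was called in any of these comparisons. The median log2 difference of the sterol arm was 0.65 in WT mice, 0.52 in Nfkb1-deficient mice and 0.62 averaged, beside -0.03, -0.013 and -0.024 for all genes. That of the fatty acid arm was -0.28, -0.0064 and -0.061, and in WT mice it ran from -0.40 without WT-Air replicate 2 to -0.14 without WT-Air replicate 3.

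All 3 O3 arrays lay above all 3 air arrays for 13 of 20 sterol arm genes in WT mice, against 13.5% of all genes, and for 13 of 20 in Nfkb1-deficient mice, against 13.1%. For 11 of 20 this held in both genotypes, against 6.22% of all genes. In the fatty acid arm it held for 1 gene in WT mice (Fads2), 1 in Nfkb1-deficient mice (Scd2) and 0 in both. The opposite separation, with O3 below air, was found for 0 of the 29 genes in either genotype. Its share over all genes was not computed, so this count cannot be set against a background. Taken array by array, the median sterol arm gene stood at 0.023, -0.13 and 0.15 relative to its WT-Air mean in WT-Air (log2). It stood at 0.58, 0.62 and 0.70 in WT-O3, 0.21, 0.28 and 0.13 in Nfkb1KO-Air, and 0.66, 0.72 and 0.62 in Nfkb1KO-O3. The air arrays of the genotypes overlapped, as WT-Air replicate 3 lay above Nfkb1KO-Air replicate 3. In bulk lung, more cells of a type and more RNA per cell cannot be told apart.

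**Figure D1:**
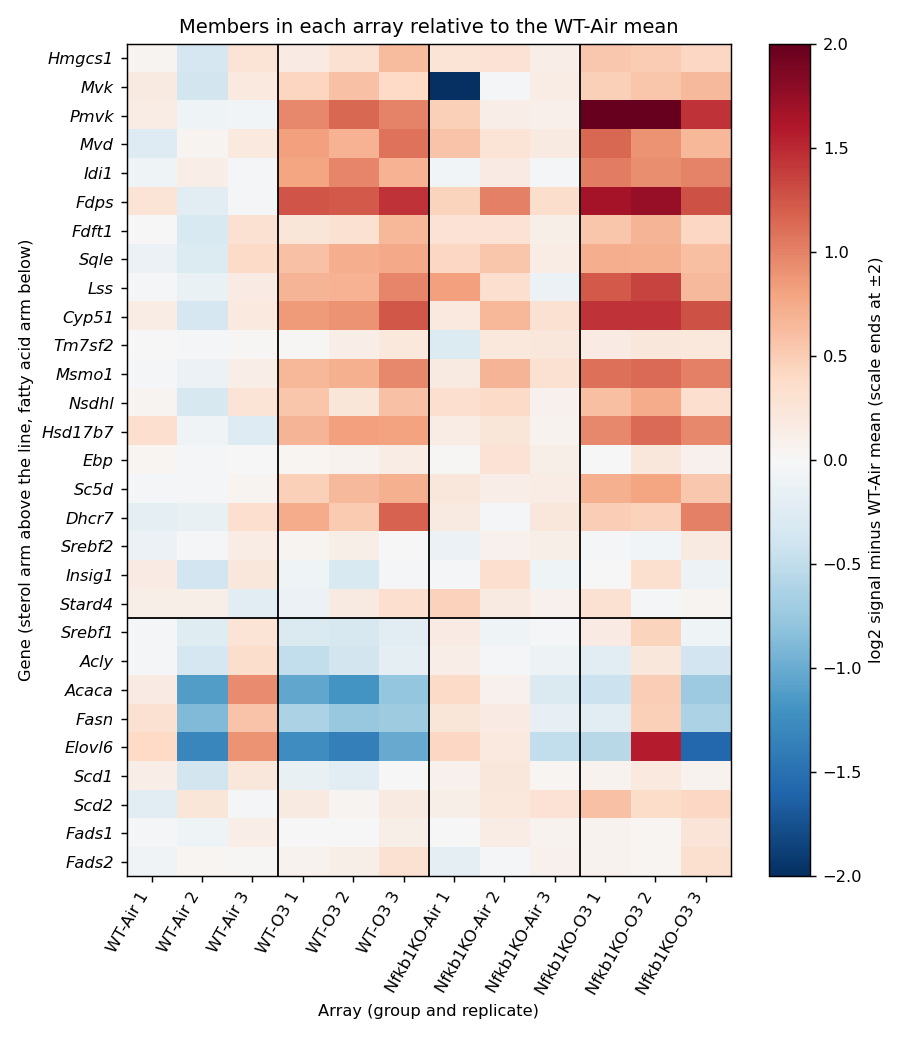
Each row is a gene and each column an array (group and replicate), and the colour gives the log2 signal minus the mean of the 3 WT-Air arrays, on a scale that ends at ±2. Most sterol arm rows, above the horizontal line, are red in the 6 O3 columns, Insig1 and Ebp are pale throughout, and Elovl6, Acaca and Fasn below the line vary between arrays of the same group.

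Of the 6 measured genes of the mevalonate and isoprenoid steps, 4 rose in WT mice (Pmvk, Mvd, Idi1 and Fdps) and 3 in Nfkb1-deficient mice (Pmvk, Idi1 and Fdps). Idi1, the isomerase that supplies the active isoprene unit, had log2 signals of 10.81, 11.03 and 10.87 in WT-Air, 11.7, 11.88 and 11.6 in WT-O3, 10.85, 11.07 and 10.86 in Nfkb1KO-Air and 11.93, 11.84 and 11.9 in Nfkb1KO-O3, replicates 1 to 3 in this order here and below. All 6 O3 arrays lay above all 6 air arrays, and the air groups of both genotypes covered nearly the same range. The O3 difference was 0.82 ± 0.096 on the log2 scale (SE), or 1.77-fold, in WT mice (adjusted p = 0.00077) and 0.97 ± 0.096, or 1.95-fold, in Nfkb1-deficient mice (adjusted p = 0.00079). Its other bright probe set gave 0.72 ± 0.12 in WT mice and 0.44 ± 0.12 in Nfkb1-deficient mice. The size of the Idi1 rise in Nfkb1-deficient mice, and which genotype rose more, thus depend on the probe set.

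Fdps, which joins isoprene units into farnesyl diphosphate, the branch point to sterols and to protein prenylation, read 10.36, 9.87 and 10.05 in WT-Air, 11.35, 11.32 and 11.54 in WT-O3, 10.54, 11.1 and 10.45 in Nfkb1KO-Air and 11.76, 11.83 and 11.36 in Nfkb1KO-O3. The O3 arrays were above the air arrays in each genotype, and the Nfkb1KO-Air arrays were above the WT-Air arrays. The O3 difference was 1.31 ± 0.18, or 2.48-fold, in WT mice (adjusted p = 0.0023) and 0.95 ± 0.18, or 1.93-fold, in Nfkb1-deficient mice (adjusted p = 0.01). Pmvk, the kinase that adds a phosphate to phosphomevalonate, read 8.98, 8.76 and 8.78 in WT-Air, 9.8, 9.99 and 9.83 in WT-O3, 9.31, 8.96 and 8.94 in Nfkb1KO-Air and 11.31, 11.05 and 10.29 in Nfkb1KO-O3. Its 3 Nfkb1KO-O3 arrays were above every other array, with replicate 3 the lowest of them. The difference was 1.04 ± 0.21, or 2.06-fold, in WT mice (adjusted p = 0.015) and 1.81 ± 0.21, or 3.51-fold, in Nfkb1-deficient mice (adjusted p = 0.001), the highest value of any measured member in either genotype.

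Mvd, the decarboxylase that ends the mevalonate steps, read 7.51, 7.81 and 7.96 in WT-Air, 8.57, 8.45 and 8.85 in WT-O3, 8.33, 8.04 and 7.94 in Nfkb1KO-Air and 8.91, 8.66 and 8.42 in Nfkb1KO-O3. The groups did not overlap in either genotype, but only the WT difference of 0.87 ± 0.19 (1.82-fold, adjusted p = 0.021) passed the test, and that in Nfkb1-deficient mice was 0.56 ± 0.19 (adjusted p = 0.1). The WT call of Mvd was kept under 20 of 27 alternative settings. Hmgcs1, the synthase at the entry of the pathway, differed by 0.36 ± 0.14 (adjusted p = 0.18) and 0.26 ± 0.14 (adjusted p = 0.33). The 3 other bright probe sets for it gave 0.51 ± 0.094, 0.25 ± 0.23 and 0.59 ± 0.165 in WT mice. In Nfkb1-deficient mice they gave 0.34 ± 0.094, 0.36 ± 0.23 and 0.57 ± 0.165, so the missed threshold holds for the probe set used. Mvk, the mevalonate kinase, was 5.0 in Nfkb1KO-Air replicate 1, the array that stood apart, and 7.88 and 8.08 in the other Nfkb1KO-Air arrays. Its uncalled difference of 1.5 ± 0.59 in Nfkb1-deficient mice rests on that array, and the other Mvk probe set gave 0.60 ± 0.22.

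**Figure D2:**
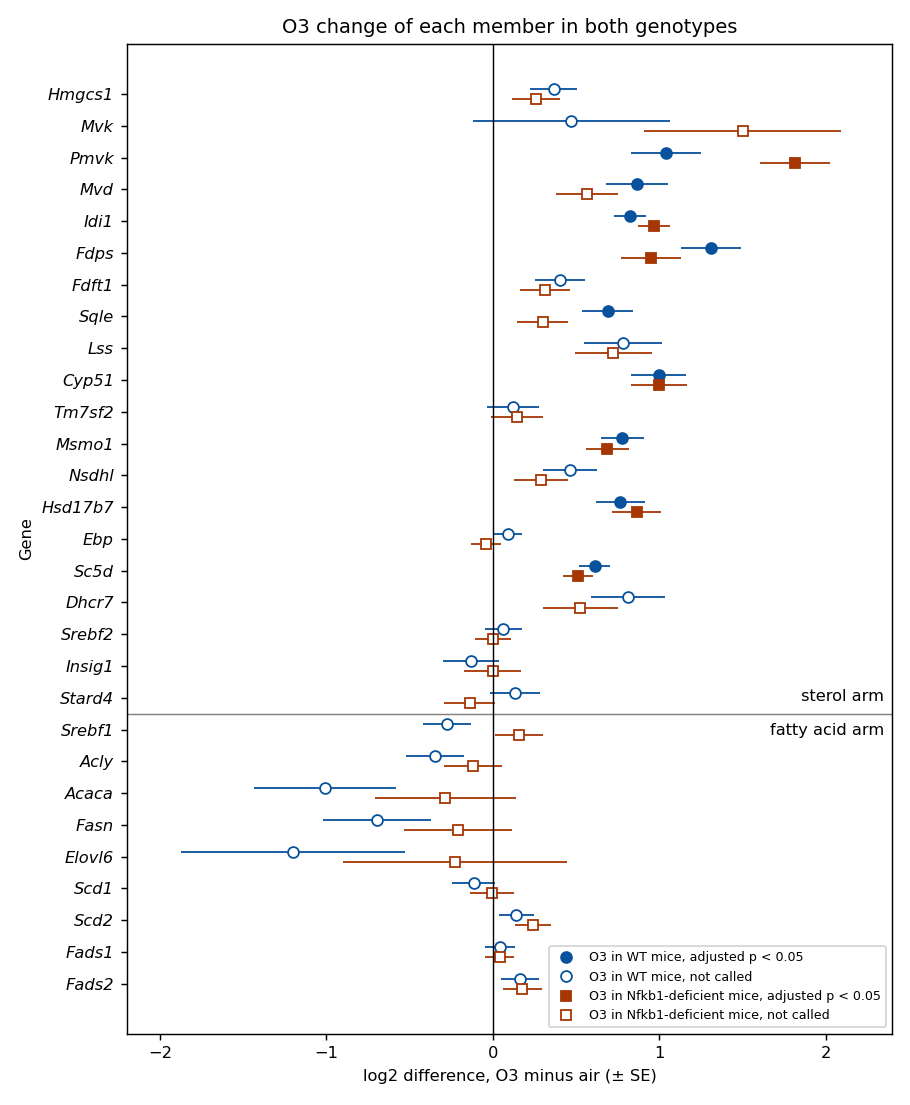
Points give the log2 difference between O3 and air for each of the 29 genes (WT mice as circles, Nfkb1-deficient mice as squares, 3 mice per group), bars give ± SE, and filled points passed adjusted p under 0.05. The filled points lie between 0.51 (Sc5d, Nfkb1-deficient) and 1.81 (Pmvk, Nfkb1-deficient), all in the sterol arm and all to the right of 0.

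The 3 genes that lead from farnesyl diphosphate to lanosterol were all positive, and each of the 3 rose when O3 was averaged over genotypes. Sqle, the squalene epoxidase and a rate-limiting enzyme of the pathway, read 10.18, 10.01 and 10.68 in WT-Air, 10.88, 11.01 and 11.04 in WT-O3, 10.71, 10.85 and 10.44 in Nfkb1KO-Air and 11.01, 11 and 10.89 in Nfkb1KO-O3. Its O3 arrays were above its air arrays in both genotypes, narrowly so in Nfkb1-deficient mice, whose air arrays already lay in the upper part of the WT-Air range or above it. The difference was 0.69 ± 0.15 (1.61-fold, adjusted p = 0.022) in WT mice and 0.30 ± 0.15 (adjusted p = 0.28) in Nfkb1-deficient mice. The WT call of Sqle was kept under 19 of 27 alternative settings. Lss, which closes the rings of lanosterol, read 8.24, 8.13 and 8.43 in WT-Air, 8.94, 8.96 and 9.24 in WT-O3, 9.1, 8.61 and 8.16 in Nfkb1KO-Air and 9.49, 9.62 and 8.91 in Nfkb1KO-O3. The groups were apart in WT mice and overlapped in Nfkb1-deficient mice through Nfkb1KO-Air replicate 1. The averaged difference was 0.75 ± 0.17 (1.69-fold, adjusted p = 0.009), with 0.78 and 0.72 in the 2 genotypes, neither of which passed the test.

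Fdft1, the squalene synthase, read 10.56, 10.27 and 10.88 in WT-Air, 10.81, 10.87 and 11.24 in WT-O3, 10.86, 10.86 and 10.68 in Nfkb1KO-Air and 11.12, 11.25 and 10.98 in Nfkb1KO-O3. Its WT groups overlapped, its Nfkb1-deficient groups did not, and its averaged difference was 0.36 ± 0.11 (adjusted p = 0.039). That call is not firm: 14 of 25 alternative settings lost it, and a mean over all its probe sets, of which 2 lay near background, gave -0.27.

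Of the 8 genes from lanosterol to cholesterol, 4 rose in each genotype, and they were Cyp51, Msmo1, Hsd17b7 and Sc5d in both. Cyp51, the sterol demethylase, read 9.34, 8.85 and 9.38 in WT-Air, 10.04, 10.08 and 10.43 in WT-O3, 9.38, 9.86 and 9.49 in Nfkb1KO-Air and 10.64, 10.63 and 10.46 in Nfkb1KO-O3. All 6 O3 arrays were above all 6 air arrays. The difference was 0.99 ± 0.17 in WT mice (1.99-fold, adjusted p = 0.0056) and 1.00 ± 0.17 in Nfkb1-deficient mice (2.00-fold, adjusted p = 0.0057). Msmo1, the methylsterol oxidase of a later step, read 10.1, 10.01 and 10.26 in WT-Air, 10.79, 10.83 and 11.08 in WT-O3, 10.31, 10.81 and 10.43 in Nfkb1KO-Air and 11.22, 11.26 and 11.13 in Nfkb1KO-O3. The groups were apart in each genotype, and Nfkb1KO-Air replicate 2 reached the lower end of the WT-O3 range. It rose by 0.78 ± 0.13 in WT mice (1.72-fold, adjusted p = 0.0054) and by 0.69 ± 0.13 in Nfkb1-deficient mice (1.61-fold, adjusted p = 0.0099).

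Hsd17b7, a ketosteroid reductase of the same demethylation complex, read 8.87, 8.46 and 8.28 in WT-Air, 9.21, 9.35 and 9.34 in WT-O3, 8.68, 8.78 and 8.61 in Nfkb1KO-Air and 9.49, 9.67 and 9.5 in Nfkb1KO-O3. No air array reached an O3 array. The rise was 0.77 ± 0.15 in WT mice (1.70-fold, adjusted p = 0.011) and 0.86 ± 0.15 in Nfkb1-deficient mice (1.82-fold, adjusted p = 0.006). Sc5d, the lathosterol desaturase, read 10.11, 10.11 and 10.19 in WT-Air, 10.62, 10.78 and 10.84 in WT-O3, 10.36, 10.27 and 10.28 in Nfkb1KO-Air and 10.85, 10.92 and 10.68 in Nfkb1KO-O3. The air arrays were tightly grouped below all O3 arrays, and the rise was 0.61 ± 0.091 in WT mice (1.53-fold, adjusted p = 0.0036) and 0.51 ± 0.091 in Nfkb1-deficient mice (1.43-fold, adjusted p = 0.0074). Its dimmer probe sets did not show this, with -0.086 and -0.33 in WT mice and 0.16 and 0.053 in Nfkb1-deficient mice.

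Dhcr7, which makes cholesterol in the last step of this branch, read 7.46, 7.48 and 7.97 in WT-Air, 8.37, 8.16 and 8.81 in WT-O3, 7.81, 7.61 and 7.86 in Nfkb1KO-Air and 8.12, 8.09 and 8.64 in Nfkb1KO-O3. Its groups did not overlap, it missed the threshold in WT mice (0.81 ± 0.22, adjusted p = 0.056) and in Nfkb1-deficient mice (0.53 ± 0.22, adjusted p = 0.19), and it rose by 0.67 ± 0.16 when averaged (1.59-fold, adjusted p = 0.014). Nsdhl, the dehydrogenase partner of Msmo1, read 9.63, 9.25 and 9.84 in WT-Air, 10.13, 9.82 and 10.15 in WT-O3, 9.91, 9.96 and 9.66 in Nfkb1KO-Air and 10.18, 10.31 and 9.91 in Nfkb1KO-O3. Its WT-O3 replicate 2 and Nfkb1KO-O3 replicate 3 lay within the air ranges, and its averaged rise of 0.38 ± 0.11 (adjusted p = 0.044) was lost under 13 of 25 alternative settings. Tm7sf2, a sterol reductase, differed by 0.12 ± 0.16 and 0.14 ± 0.16, and Ebp, the sterol isomerase, by 0.089 ± 0.088 and -0.041 ± 0.088, in WT and Nfkb1-deficient mice.

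**Figure D3:**
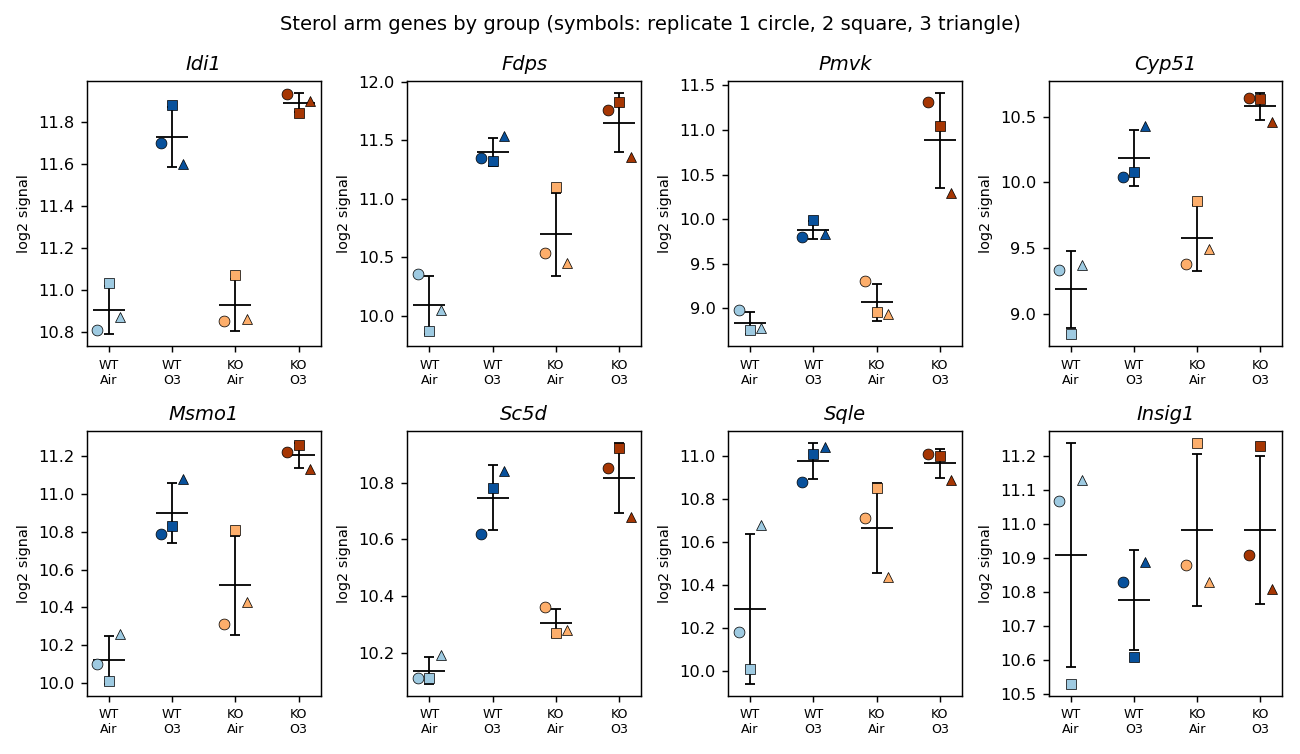
Log2 signals of 8 sterol arm genes in each array, by group (WT, wild type, and KO, Nfkb1-deficient, in air or O3), with a bar at the mean of 3 mice, whiskers of ± SD and a symbol for each replicate. For Idi1 the O3 arrays lie at 11.60 to 11.93 and the air arrays at 10.81 to 11.07, while Insig1 spans 10.53 to 11.24 with all groups overlapping.

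The control and transport genes of the module, Srebf2, Insig1 and Stard4, were not called with O3 in either genotype. Srebf2, which encodes SREBP2, differed by 0.063 ± 0.11 in WT mice (95% interval -0.17 to 0.30) and by 0.00072 ± 0.11 in Nfkb1-deficient mice (-0.24 to 0.24), and its 12 log2 signals ran from 9.76 to 10.06. Its other bright probe set gave -0.027 ± 0.13 and -0.37 ± 0.13. Insig1, a direct SREBP target whose product holds Scap in the endoplasmic reticulum when sterol is plentiful, was singled out after its values were seen, and read 11.07, 10.53 and 11.13 in WT-Air, 10.83, 10.61 and 10.89 in WT-O3, 10.88, 11.24 and 10.83 in Nfkb1KO-Air and 10.91, 11.23 and 10.81 in Nfkb1KO-O3. Its groups overlapped, and it differed by -0.13 ± 0.17 (-0.50 to 0.24) in WT mice and -0.0018 ± 0.17 (-0.37 to 0.36) in Nfkb1-deficient mice. Stard4, a cholesterol carrier, differed by 0.13 ± 0.15 and -0.14 ± 0.15 on its brightest probe set, while another of its probe sets gave 0.79 ± 0.23 and 0.66 ± 0.23, so the direction of Stard4 depends on the probe set.

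Other genes of the sterol pathway were read from a list drawn up beside the module. Of 10 measured, 2 rose in WT mice and the same 2 in Nfkb1-deficient mice, with 0 lower. Over all genes 3.18% rose in WT mice, 3.36% in Nfkb1-deficient mice and 1.74% in both. Scap read 10.04, 10.19 and 10.16 in WT-Air, 10.5, 10.54 and 10.53 in WT-O3, 10.09, 10.13 and 10.08 in Nfkb1KO-Air and 10.49, 10.34 and 10.36 in Nfkb1KO-O3, with all O3 arrays above all air arrays, and rose by 0.39 ± 0.081 in WT mice (1.31-fold, adjusted p = 0.016) and 0.30 ± 0.081 in Nfkb1-deficient mice (1.23-fold, adjusted p = 0.048). Npc2, which carries cholesterol out of lysosomes, rose by 0.36 ± 0.065 (adjusted p = 0.0089) and 0.27 ± 0.065 (adjusted p = 0.029). Mbtps1, the protease that cuts SREBP in the Golgi, was at -0.20 and -0.32 and fell only when averaged (-0.26 ± 0.066, adjusted p = 0.019), where Erlin1, an endoplasmic reticulum scaffold of this pathway, rose by 0.47 (adjusted p = 0.029). The median of the list was 0.0089 in WT mice and -0.022 in Nfkb1-deficient mice.

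Genes of sterol efflux, esterification and the oxysterol receptor LXR were called in both directions. Of 9 measured, 1 rose and 2 fell in WT mice, where 3.18% of all genes rose and 2.21% fell. In Nfkb1-deficient mice 1 rose and 0 fell, where 3.36% of all genes rose and 2.81% fell. Ch25h, the hydroxylase that turns cholesterol into an oxysterol which blocks SREBP processing, read 8.28, 8.35 and 8.52 in WT-Air, 9.48, 9.89 and 9.68 in WT-O3, 8.29, 8.29 and 8.24 in Nfkb1KO-Air and 9.74, 9.89 and 10.2 in Nfkb1KO-O3. Its 6 O3 arrays were above all 6 air arrays, and it rose by 1.30 ± 0.15 in WT mice (2.46-fold, adjusted p = 0.00061) and by 1.67 ± 0.15 in Nfkb1-deficient mice (3.18-fold, adjusted p = 0.00025). Abca1, a cholesterol exporter and LXR target, read 10.93, 11.35 and 11.58 in WT-Air, 10.74, 10.35 and 10.57 in WT-O3, 11.56, 10.89 and 11.44 in Nfkb1KO-Air and 11.15, 10.8 and 10.87 in Nfkb1KO-O3. Its WT groups were apart and its Nfkb1-deficient groups overlapped, with differences of -0.73 ± 0.19 (adjusted p = 0.045) and -0.36 ± 0.19 (adjusted p = 0.31). Abcg1, its partner, read 11.3, 11.32 and 11.43 in WT-Air, 10.7, 10.92 and 10.95 in WT-O3, 11.2, 11.05 and 11.15 in Nfkb1KO-Air and 11.1, 10.86 and 11.05 in Nfkb1KO-O3. Its WT groups were apart and its Nfkb1-deficient groups overlapped. It fell by 0.49 ± 0.095 in WT mice (adjusted p = 0.011) and differed by -0.14 ± 0.095 (adjusted p = 0.45) in Nfkb1-deficient mice. Whether the falls differ between the genotypes is not shown by these calls.

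Values of other cell types stood beside the rise of the sterol arm. Of 8 measured alveolar macrophage markers, 2 (Marco and Chil3) rose in each genotype, where 3.18% (WT) and 3.36% (Nfkb1-deficient) of all genes rose. In each genotype 3 were negative, namely Itgax, Pparg and Fabp1 in WT mice and Siglec1, Itgax and Fabp1 in Nfkb1-deficient mice. The summed signal of the 8 was 13100 to 15900 in the 6 air arrays and 17800 to 19200 in the 6 O3 arrays, and Chil3 alone made up 70.6% to 83.9% of it. Of the 9 type II markers, limma called 0 in either genotype and 4 higher when averaged, where 7.74% of all genes rose. In each genotype 4 had an unadjusted p under 0.05, where 19.7% of all genes had in WT and 21.4% in Nfkb1-deficient mice. The sums of the type II markers were 114000 to 124000 in WT-Air, 123000 to 127000 in WT-O3, 111000 to 115000 in Nfkb1KO-Air and 116000 to 123000 in Nfkb1KO-O3. Of 9 markers of dividing cells, 4 rose in WT mice, where 3.18% of all genes rose. Their WT-Air sums spanned 1410 to 1770 against 3510 to 4370 for WT-O3. In Nfkb1-deficient mice 0 of these 9 were called, where 3.36% of all genes rose and 2.81% fell. There 7 were positive, and the sums were 1130 to 2800 in air and 1330 to 3140 after O3. The part of macrophage, type II and dividing cell content in the sterol arm result was not tested.

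The number of calls in the sterol arm depended on the settings more than its direction did. In WT mice it was 2 with median centring in place of quantile normalisation, where calls over all genes fell from 947 to 87. It was 5 without WT-O3 replicate 2, where 290 of all genes were called. Another alternative, chosen after seeing the data, left out the 4 arrays of Ucp1 log2 signal above 10 (WT-Air replicates 1 and 3, Nfkb1KO-O3 replicates 1 and 2). That leaves WT-Air replicate 2 and Nfkb1KO-O3 replicate 3 as the lone arrays of their groups. In Nfkb1-deficient mice the count was 3 with a mean over all probe sets, where calls over all genes fell from 1083 to 584. The sterol arm medians without the 4 arrays of high Ucp1 were 0.80 in WT mice, 0.31 in Nfkb1-deficient mice and 0.58 averaged. The methods name a t-test for genotype in air and for O3 in other wild-type mice of the study. Here it was run unmoderated on pairs of groups, without sharing the spread across groups or genes, and is called the methods' t-test. By it the sterol arm count was 0 in each genotype after Benjamini-Hochberg, where 5 of all genes were called in WT and 1 in Nfkb1-deficient mice. At an unadjusted p under 0.05 it was 11 in WT and 10 in Nfkb1-deficient mice, where 18.6% and 15.8% of all genes passed. With limma on only the 6 arrays of a genotype the adjusted calls were 9 and 7.

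Fatty acid arm genes spread widely between mice of the same group, and none was called with O3. In WT mice 3 of 9 were positive and 6 negative, and 1 (Acaca) had an unadjusted p under 0.05 in limma, where 19.7% of all genes had, against 0 by the methods' t-test (18.6% of all genes). In Nfkb1-deficient mice 4 were positive and 5 negative, with 1 (Scd2) under 0.05 by either test, where 21.4% of all genes were in limma and 15.8% by the methods' t-test. Fasn, the fatty acid synthase, read 13.16, 11.97 and 13.42 in WT-Air, 12.21, 12.1 and 12.14 in WT-O3, 13.1, 13.02 and 12.69 in Nfkb1KO-Air and 12.64, 13.33 and 12.22 in Nfkb1KO-O3. WT-Air replicate 2 lay below all WT-O3 arrays and the other WT-Air arrays well above them, and Nfkb1KO-O3 ranged from near the WT-O3 level to near the top. The O3 difference was -0.70 ± 0.32 (adjusted p = 0.26) in WT mice and -0.21 ± 0.32 (adjusted p = 0.77) in Nfkb1-deficient mice.

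Acaca, the carboxylase that makes malonyl-CoA for Fasn, read 10.61, 9.33 and 11.39 in WT-Air, 9.4, 9.24 and 9.66 in WT-O3, 10.83, 10.53 and 10.15 in Nfkb1KO-Air and 10.02, 10.93 and 9.71 in Nfkb1KO-O3. The same arrays were high and low as for Fasn, except in WT-O3, where replicate 3 was highest in Acaca and replicate 1 in Fasn. The Acaca difference was -1.01 ± 0.42 (adjusted p = 0.2) in WT mice and -0.29 ± 0.42 (adjusted p = 0.75) in Nfkb1-deficient mice. Elovl6, the elongase of palmitate, was singled out after its values were seen, and read 9.9, 8.2 and 10.41 in WT-Air, 8.27, 8.14 and 8.5 in WT-O3, 9.93, 9.69 and 9.01 in Nfkb1KO-Air and 8.95, 11.08 and 7.93 in Nfkb1KO-O3. Nfkb1KO-O3 held both the highest and the lowest of the 12 values. Its difference was -1.20 ± 0.67 in WT mice (adjusted p = 0.36) and -0.23 ± 0.67 in Nfkb1-deficient mice (adjusted p = 0.89). Another Elovl6 probe set, less bright, gave -0.999 ± 0.58 in WT mice and 0.11 ± 0.58 in Nfkb1-deficient mice. Acly, which supplies cytosolic acetyl-CoA to both arms, differed by -0.35 ± 0.17 and -0.12 ± 0.17. Other bright Acly probe sets gave -0.43 ± 0.22 and -0.39 ± 0.31 in WT mice. In Nfkb1-deficient mice they gave 0.089 ± 0.22 and 0.28 ± 0.31, so the sign there depends on the probe set.

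Adipocyte markers varied between the same arrays. Ucp1, the uncoupling protein of brown fat, read 10.39, 4.57 and 12.59 in WT-Air, 6.7, 2.56 and 5.83 in WT-O3, 8.46, 7.3 and 7.9 in Nfkb1KO-Air and 10.81, 13.03 and 5.89 in Nfkb1KO-O3, and Adipoq, the adipokine adiponectin, read 13.1, 9.04 and 13.22 in WT-Air, 11.4, 10.42 and 10.39 in WT-O3, 12.1, 12.1 and 10.82 in Nfkb1KO-Air and 10.02, 12.63 and 7.67 in Nfkb1KO-O3. The arrays lowest in Adipoq, WT-Air replicate 2 and Nfkb1KO-O3 replicate 3, were the lowest of their groups in Fasn, Acaca and Elovl6 as well. The arrays highest in Adipoq within those groups were the highest in all 3. In Nfkb1KO-Air, replicate 3 was the lowest in Adipoq and in all 3. In WT-O3 the order differed, as replicate 3 was the lowest in Adipoq but the highest in Acaca and Elovl6. The summed signal of 9 measured adipocyte markers ran from 8500 to 71400 in WT-Air, 13900 to 26400 in WT-O3, 25300 to 42300 in Nfkb1KO-Air and 4010 to 68100 in Nfkb1KO-O3, and in each array at most 1 of the 9 was at or below the 20th percentile. Skeletal muscle markers summed to 38600 in WT-Air replicate 3, and no other array exceeded 9420.

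Without WT-Air replicate 2, Acaca (-1.56, adjusted p = 0.021) and Fasn (-1.14, adjusted p = 0.021) were called lower with O3 in WT mice. Without the 4 arrays of high Ucp1, Elovl6, Acaca and Fasn were at 0.10, 0.11 and 0.18 in WT mice, where WT-Air replicate 2, the lowest WT-Air array in all 3, is the only air array left. The part of adipose tissue in these values was not tested.

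**Figure D4:**
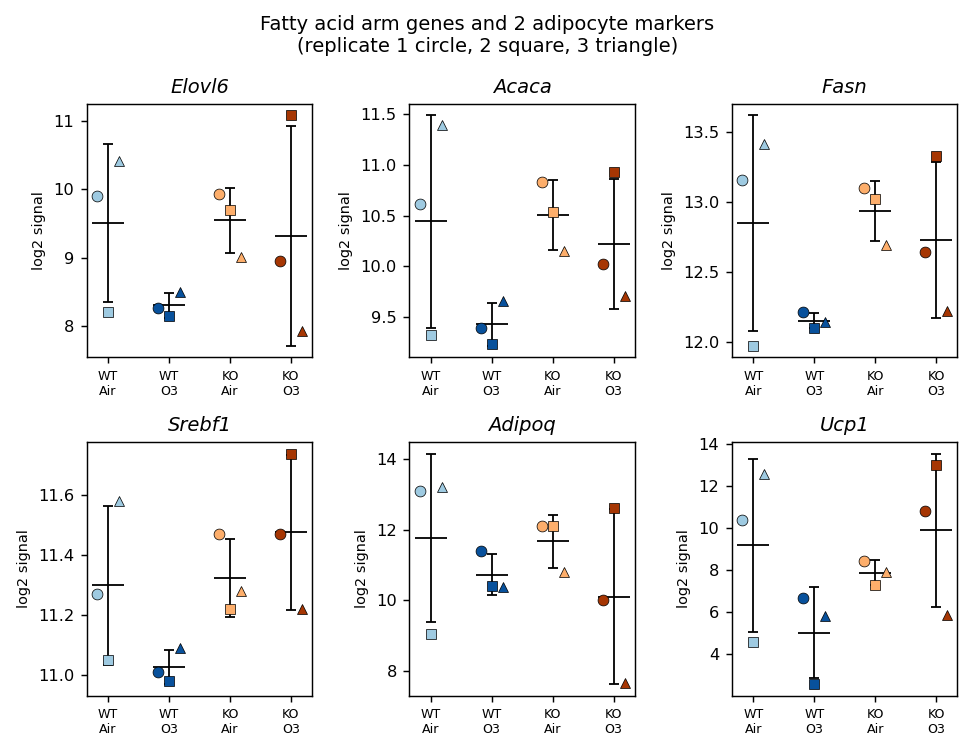
Log2 signals of Elovl6, Acaca, Fasn and Srebf1 beside those of the adipocyte markers Adipoq and Ucp1 in each array, by group (WT, wild type, and KO, Nfkb1-deficient), with a bar at the mean of 3 mice, whiskers of ± SD and a symbol for each replicate. WT-Air replicate 2 (square) and Nfkb1KO-O3 replicate 3 (triangle) are the low arrays of their groups in Elovl6, Acaca, Fasn and Adipoq.

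The rest of the fatty acid arm spread less between arrays. The size of the Scd2 and Fads2 differences depended on the probe set, as did the sign for Scd1 and, in Nfkb1-deficient mice, for Fads1. Scd1, a stearoyl-CoA desaturase that makes oleate, read 14.54, 14.03 and 14.63 in WT-Air, 14.25, 14.18 and 14.41 in WT-O3, 14.49, 14.63 and 14.44 in Nfkb1KO-Air and 14.47, 14.6 and 14.47 in Nfkb1KO-O3. The groups overlapped, with differences of -0.12 ± 0.13 and -0.0064 ± 0.13. The other Scd1 probe set, less bright, gave 0.063 ± 0.31 in WT mice and 0.39 ± 0.31 in Nfkb1-deficient mice. Scd2, a closely related desaturase, read 13.26, 13.71 and 13.43 in WT-Air, 13.65, 13.52 and 13.65 in WT-O3, 13.59, 13.68 and 13.76 in Nfkb1KO-Air and 14.05, 13.83 and 13.88 in Nfkb1KO-O3. Only its Nfkb1-deficient groups were apart, with 0.24 ± 0.11 (adjusted p = 0.21) against 0.14 ± 0.11 (adjusted p = 0.51) in WT mice. Its 2 other probe sets, less bright, gave 0.40 ± 0.12 and 0.42 ± 0.18 in WT mice and 0.51 ± 0.12 and 0.94 ± 0.18 in Nfkb1-deficient mice. Fads2, a desaturase of polyunsaturated fatty acids, read 9.54, 9.66 and 9.64 in WT-Air, 9.68, 9.73 and 9.91 in WT-O3, 9.43, 9.59 and 9.7 in Nfkb1KO-Air and 9.68, 9.64 and 9.94 in Nfkb1KO-O3. Its WT groups were narrowly apart, and it differed by 0.16 ± 0.12 and 0.18 ± 0.12. Its other bright probe set gave 0.44 ± 0.14 and 0.51 ± 0.14, and a dim one gave 0.14 ± 0.64 and 2.97 ± 0.64. Fads1, the other such desaturase, differed by 0.041 ± 0.089 in both genotypes. A less bright Fads1 probe set gave 0.038 ± 0.26 in WT mice and -0.36 ± 0.26 in Nfkb1-deficient mice. Srebf1, which encodes SREBP1, read 11.27, 11.05 and 11.58 in WT-Air, 11.01, 10.98 and 11.09 in WT-O3, 11.47, 11.22 and 11.28 in Nfkb1KO-Air and 11.47, 11.74 and 11.22 in Nfkb1KO-O3. Its groups overlapped in each genotype, and it differed by -0.28 ± 0.14 (adjusted p = 0.32) in WT mice and 0.15 ± 0.14 (adjusted p = 0.59) in Nfkb1-deficient mice.

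Of 15 other measured genes of fatty acid and triglyceride synthesis, 1 rose in WT mice and 0 in Nfkb1-deficient mice. Over all genes 3.18% rose in WT mice and 3.36% in Nfkb1-deficient mice. The gene that rose was Acsl4, an acyl-CoA synthetase that favours arachidonate (0.42 ± 0.10, adjusted p = 0.036). When O3 was averaged, Acsl4 rose by 0.26 ± 0.073 and Gpam, the acyltransferase that begins triglyceride synthesis, fell by 0.33 ± 0.093 (adjusted p = 0.033 for each). The list was negative for 12 of 15 genes in WT mice (median -0.61) and 10 of 15 in Nfkb1-deficient mice (median -0.16). In WT-Air, Thrsp read 12.31, 8.96 and 13.14, Dgat2 11.01, 9.2 and 11.16, and Me1 12.12, 10.92 and 12.7. Replicate 2 was thus the lowest, as for Adipoq, while Elovl1 and Elovl5 were highest in that replicate. The part of adipose tissue in the values of this list was not tested. Of 12 measured genes of fatty acid oxidation, limma called 0 in either genotype. Unadjusted p was under 0.05 for 3 in WT mice (19.7% of all genes) and 1 in Nfkb1-deficient mice (21.4% of all genes). Cpt1a, the gate of fatty acid entry into mitochondria, came nearest in Nfkb1-deficient mice (-1.35 ± 0.38, adjusted p = 0.054), with -0.22 ± 0.38 in WT mice.

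No gene of the module was called as responding differently to O3 in the absence of Nfkb1. The interaction, the WT response subtracted from the Nfkb1-deficient response, was called for 0 of the 29 genes in limma and 0 by the methods' two-way analysis, where 0.0342% of all genes were called. Pmvk alone had an unadjusted p under 0.05 for it (0.77 ± 0.30, 95% interval 0.13 to 1.42, adjusted p = 0.81 in limma). The intervals bound how far the responses could differ: -0.51 to 0.51 for Cyp51, -0.49 to 0.31 for Msmo1 and -0.91 to 0.19 for Fdps, on the log2 scale. Sqle had the most negative interaction of the arm (-0.39 ± 0.22, adjusted p = 0.83). The missed threshold does not show that the responses were alike. In the fatty acid arm the interaction was positive for 8 of 9 genes, among them Srebf1 at 0.43 ± 0.20 (adjusted p = 0.81). Its median of 0.23 ran from 0.097 without Nfkb1KO-O3 replicate 2 to 0.55 without WT-Air replicate 2, and was -0.30 without the 4 arrays of high Ucp1.

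In air, 19 of 20 sterol arm genes had a positive difference between Nfkb1-deficient and WT mice, but none was called in limma. The median was 0.23, beside -0.0097 for all genes, where 0.342% of all genes were called. It was 0.12 without WT-Air replicate 2, and -0.02 with median centring, which put the median of all genes at -0.195. Mvk, through the array that stood apart, was the exception at -0.94. Unadjusted p was under 0.05 for 1 sterol arm gene by the methods' t-test (6.73% of all genes) and for 4 in limma (11.3% of all genes), namely Fdps (0.60 ± 0.18, adjusted p = 0.23), Msmo1 (0.40 ± 0.13, adjusted p = 0.26), Sqle (0.38 ± 0.15, adjusted p = 0.37) and Cyp51 (0.39 ± 0.17, adjusted p = 0.4). The air arrays of the genotypes did not overlap for Fdps, Msmo1 and Cyp51 and overlapped for Sqle. These differences and the O3 differences share the air arrays. In the fatty acid arm 0 of 9 were called or under 0.05 in air, with Scd2 at 0.21 ± 0.11 and Scd1 at 0.12 ± 0.13.

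After O3, Pmvk was higher in Nfkb1-deficient than in WT mice by 1.01 ± 0.21 (2.01-fold), with no overlap of the arrays, at an adjusted p of 0.05 that did not lie under the threshold. Several settings called it, with adjusted p from 0.0014 to 0.88 over all alternatives, and without the 4 arrays of high Ucp1, which leave Nfkb1KO-O3 replicate 3 as the lone array of its group, its difference was 0.41 ± 0.19. In all, 0 of 29 genes were called, where 0.723% of all genes were. By the t-test, 4 sterol arm and 3 fatty acid arm genes had an unadjusted p under 0.05, where 10.9% of all genes had. For this comparison the methods name a two-way ANOVA instead. In limma 3 sterol arm and 2 fatty acid arm genes had an unadjusted p under 0.05, where 9.42% of all genes had. The fatty acid genes were Srebf1 (0.45 ± 0.14, adjusted p = 0.26) and Scd2 (0.31 ± 0.11, adjusted p = 0.3), both with Nfkb1KO-O3 arrays above all WT-O3 arrays. The sterol arm genes beside Pmvk were Cyp51 (0.39 ± 0.17) and Msmo1 (0.30 ± 0.13), each with adjusted p = 0.46.

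Averaged over exposures, 0 of 29 genes were called between the genotypes, where 1.97% of all genes were. Unadjusted p was under 0.05 for 4 sterol arm genes and 2 fatty acid arm genes in limma, where it was for 13.2% of all genes, led by Pmvk (0.62 ± 0.15, adjusted p = 0.054), Msmo1 (0.35 ± 0.091, adjusted p = 0.079) and Scd2 (0.26 ± 0.074, adjusted p = 0.11). The wild types were a separate stock and not littermates of the deficient mice, so strain background and the lost gene cannot be told apart for any gene. Pmvk, Fdps and Elovl6 also lie on chromosome 3 with Nfkb1 in the RefSeq annotation, Elovl6 within 20 Mb of it and the others farther away. For them linked strain differences add to this.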

How the data were processed

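Affymetrix mouse genome arrays, 1 per mouse, were scanned by the authors, and the deposited values are MAS5 signal values (intensity on a linear scale, scaled by the authors to a trimmed mean of 500) from Expression Console, with versions not given in the sources used here. The 45101 probe sets were floored at a signal of 1, put on the log2 scale and quantile normalised here, and 42613 stayed because they lay above the 20th percentile (log2 4.37) in at least 1 array. The 64 control probe sets were then set aside. Probe sets annotated with exactly 1 symbol were used (34958, with 932 of several symbols and 9211 of none), and for a gene with several the brightest over the 12 arrays. Of the gene identifiers, 34754 matched RefSeq.

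The 17567 genes were fitted in limma 3.58.1 (R 4.3.3) with 1 mean per group on all 12 arrays, a trended prior and no replicate block, and 7 contrasts were adjusted by Benjamini-Hochberg over all genes, with calls at adjusted p under 0.05. An exact test of 3 against 3 arrays cannot go below 0.1, so no single-gene permutation test was used. Each array is a separate mouse, and precision is limited by having 3 of them per group. The members, pathway lists, marker lists and motifs were chosen with earlier results of these data known. Named with values in every array are members called in any contrast and, for each arm and contrast, the 2 of smallest p, with Insig1 and Elovl6 added after their values were seen. Genes of the pathway lists are named where called or of smallest p. Deviations of same-numbered arrays from their group means had correlations of -0.17 to 0.11 (1 of 18 over 0.1), so the replicate numbers were not taken as pairs. Alternatives covered scaling, filters, an added 16 before the log, array weights, the spread prior, probe set averaging, a replicate block, each array left out, limma on 6 arrays of a pair of groups, the methods' t-test (unmoderated here, while the study also names a moderated form) and two-way analysis, and 2 chosen after seeing the data (arrays of Ucp1 log2 signal above 10 left out, and control probe sets removed first). The fit was tested on simulated data. Promoters came from RefSeq (GRCm38.p6). Figures used matplotlib 3.10.9.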

Additional observations from a re-analysis of the deposited data

How the results depend on the processing

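The sterol arm was higher after O3 under each setting run, with 0 of its genes called lower, but the count of calls moved. Against 9 in WT mice it was 2 with median centring, where calls over all genes fell from 947 to 87. It was 0 by the methods' t-test after Benjamini-Hochberg, where 5 of all genes were called. With each array left out in turn it was 5 to 11 (5 without WT-O3 replicate 2, where 290 of all genes were called). Against 7 in Nfkb1-deficient mice it was 3 with a mean over all probe sets, where calls over all genes fell from 1083 to 584. It was 0 by the methods' t-test after Benjamini-Hochberg, where 1 of all genes was called, and 6 to 8 with each array left out. Averaged over genotypes it was 13, and 11 to 14 with each array left out. Without the 4 arrays of high Ucp1, WT-Air and Nfkb1KO-O3 keep 1 array each. Each such array is assumed to vary like the other groups and is the lowest of its group in Elovl6, Acaca and Fasn. Median centring moved the median of all genes to 0.25 for O3 in Nfkb1-deficient mice and 0.13 averaged, against which the sterol arm medians were 0.78 and 0.80.

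In the fatty acid arm, O3 called 2 genes in Nfkb1-deficient mice and 2 averaged with a mean over all probe sets, and 1 in Nfkb1-deficient mice by the unadjusted t-test of the methods. With each array left out, the calls were 0 to 2 in WT mice and 0 to 3 averaged. The O3 difference in Nfkb1-deficient mice turned positive for Elovl6, Acaca and Fasn with median centring (0.115, 0.118 and 0.268), for Elovl6 and Acaca with a mean over all probe sets (0.0118 and 0.0527), and for Elovl6 and Fasn without Nfkb1KO-O3 replicate 3 (0.466 and 0.0455, with ranges of -1.1 to 0.466 and -0.504 to 0.0455 as each array was left out). The averaged difference of Fdft1 was -0.267 with a mean over all probe sets. Without the 4 arrays of high Ucp1, the WT differences of Elovl6, Acaca and Fasn were 0.1, 0.105 and 0.184, their interactions -1.71, -0.901 and -0.896, and the genotype difference of Elovl6 after O3 -0.373. The cause was not tested.

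Between genotypes after O3, 1 sterol arm gene, Pmvk, was called with the deposited scaling alone, the filter at the array median, 16 added before the log, array weights or the replicate block. With each array left out, 0 to 1 sterol arm genes were called. The unadjusted t-test, which the methods do not name for this comparison, gave 4 sterol arm and 3 fatty acid arm genes. In air that test gave 1 sterol arm gene, and 1 fatty acid arm gene was called without the 4 arrays. Averaged over exposures, 1 sterol arm gene was called with the deposited scaling alone, the filter at the array median, the replicate block or both arrays that stand apart left out (Nfkb1KO-Air replicate 1 and WT-Air replicate 3), and array weights called 2 sterol arm genes and 1 fatty acid arm gene. With each array left out this was 0 to 1 in either arm. The replicate block changed no other count by more than 1.5 times. Of all 1493 values recomputed, 1349 kept their direction and their side of the threshold or moved by less than the limit.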
